A study of Mus musculus with 8 samples.

Results

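Complement factors and complement regulators were followed in lung epithelial cells of mice that had inhaled bacterial lipopolysaccharide (LPS) or saline for 10 weeks. The set was chosen by symbol, with earlier results of these data known, and holds 9 genes. Its factors are the convertase components Cfb and C2 and the thioester proteins C3 and C4b. Its regulators are the membrane proteins Cd55, Cd59a and Cd46 and the secreted proteins Serping1 and Clu. The chains of C1q, which macrophages make in large amounts, were left out of it. The deposited table has 13265 genes and holds 8 of the 9 members. Cd46 has no row and was not analysed here.

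The LPS group had 3 C57BL6 mice, exposed to aerosolized PBS carrying E. coli LPS at 0.5 mg/ml, and the PBS group had 5 C57BL6 mice, exposed to aerosolized PBS alone. All mice were wild type by the column names. Sessions took 30 min and were given 3 times a week for 10 weeks in both groups, with lungs taken 48 h after the last session. The methods state that mice were female and either 10 to 14 weeks old or aged, and the labels give no age for these mice. From each mouse 10000 EpCAM+ CD31- CD45- cells were sorted and sequenced by bulk MARS-seq, a 3′ end method that counts unique molecular identifiers (UMIs), each standing for one captured transcript. Libraries are named here by the number in their column, s4, s14 and s18 for LPS mice and s1, s2, s6, s11 and s16 for PBS mice. The sort takes alveolar and airway epithelium together. In such bulk libraries, fewer cells of a type and less RNA per cell cannot be told apart.

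Complement is a cascade of plasma and locally made proteins that tags microbes and damaged cells. C3 lies at its centre and is cleaved by convertases, which carry factor B (Cfb) in the alternative pathway and C2 together with C4 in the classical and lectin pathways. Host cells hold the cascade in check with membrane proteins such as CD55, CD46 and CD59 and with soluble inhibitors such as C1 inhibitor (Serping1) and clusterin (Clu). The liver is the main source of the plasma proteins, and epithelia of the airway and alveolus also make several of them.

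The LPS libraries held 2739340 to 4445431 UMIs and the PBS libraries 2232727 to 2890560, so that 3 UMIs, taken as the detection floor, came to 0.667 to 1.05 CPM (counts scaled to a common library size, with TMM factors) in LPS mice and 0.968 to 1.45 CPM in PBS mice. Epcam, the antigen of the sort, had 107 to 137 CPM in LPS mice and 107 to 148 CPM in PBS mice. Ptprc, which encodes CD45, was still present at 23.1 to 37.2 CPM in LPS mice and 7.68 to 35.5 CPM in PBS mice, and Pecam1 (CD31) at 78.3 to 167 CPM in LPS mice and 72.8 to 172 CPM in PBS mice. Of 17 macrophage markers 8 were called higher in LPS mice, and their summed level was 1070 to 2283 CPM in LPS mice and 329 to 693 CPM in PBS mice. A gene was called where the edgeR quasi-likelihood test gave a Benjamini-Hochberg adjusted p under 0.05 over 12661 tested genes and the log2 fold change was larger than 0.32 in size, the minimum of the study. By this rule 2.03% of tested genes were called, 1.46% higher and 0.569% lower.

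Cfb and C2, the serine proteases of the alternative and the classical C3 convertase, were the members called higher in LPS mice, 2 of 8, against 1.46% of tested genes called higher and 2.03% called in either direction. No member was called lower, against 0.569% of tested genes. Without the single LPS mouse s4, s14 or s18, or without the PBS mouse s11, neither was called. Over all genes, 48, 78, 47 and 71 were called higher in these fits, against 185 with all mice. Of the 8 members 5 had an unadjusted p under 0.05 and a higher level in LPS mice (Cfb, C2, C3, Cd55 and Clu), which held for 10.4% of all tested genes. The log2 fold change was above 0 for 8 of 8 members, against 47.3% of tested genes. The median log2 fold change was 0.48 over the members and -0.02 over all tested genes. In 3 of 8 members (Cfb, C2 and Cd55) every LPS mouse lay above every PBS mouse, which was so for 8.52% of tested genes. The members were chosen with earlier results of these data known, so these shares describe the set and are no test of it.

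**Figure D1:**
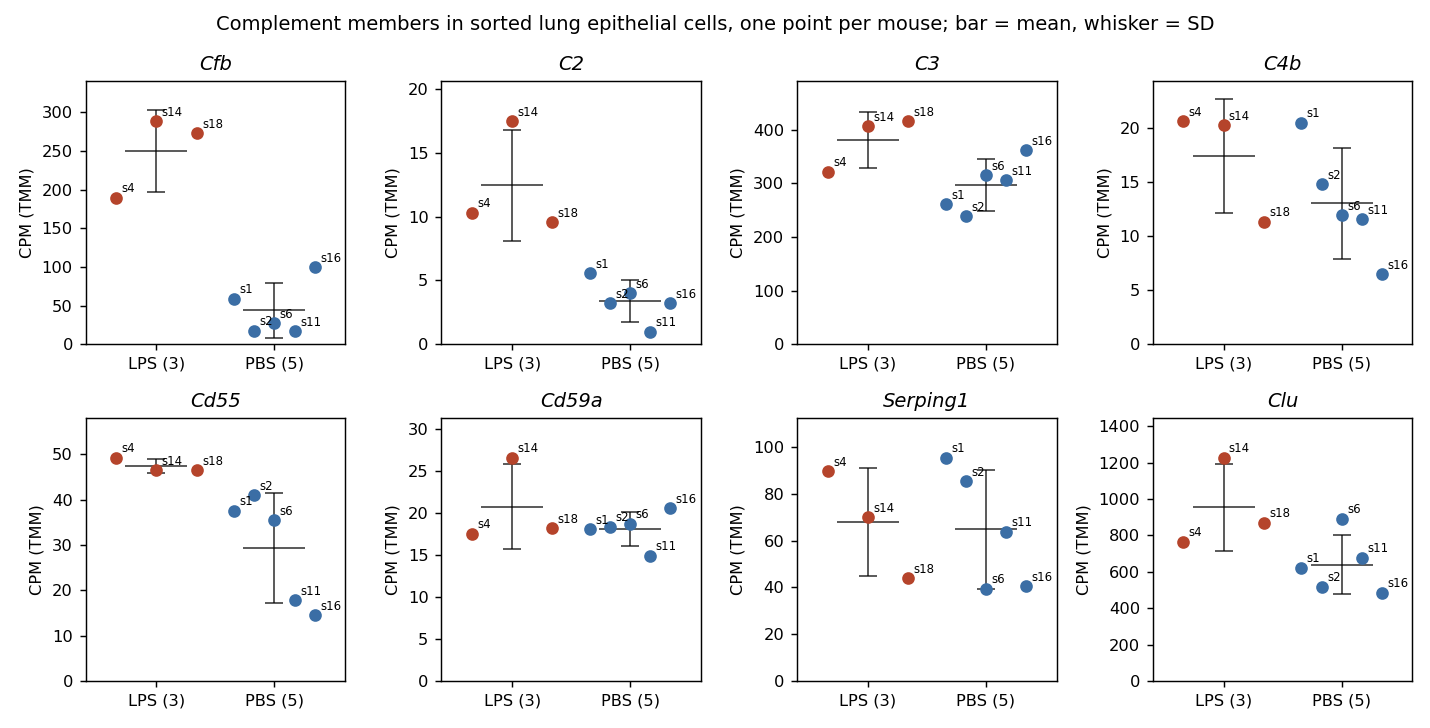
TMM-normalized CPM of the 8 complement members in the table (one panel per gene, vertical axes from 0), with each point a mouse named by its library number and the bars giving the mean and SD of 3 LPS and 5 PBS mice. The LPS points of Cfb, C2 and Cd55 lie above all PBS points, and the points of the other members overlap.

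Cfb encodes factor B, the protease-bearing part of the alternative pathway C3 convertase. It had 189.6 (s4), 289 (s14) and 273 (s18) CPM in LPS mice, against 58.8 (s1), 17.4 (s2), 27.5 (s6), 16.9 (s11) and 99.5 (s16) CPM in PBS mice. All 3 LPS mice were higher than all 5 PBS mice, and the PBS mice differed among themselves by 5.89-fold, with s16 and s1 high and s2, s6 and s11 low. These levels rested on 789 to 1228 UMIs in LPS mice and 35 to 246 UMIs in PBS mice. The mean was 250.5 ± 53.3 CPM in LPS mice and 44.0 ± 35.4 CPM in PBS mice (SD, n = 3 and n = 5). The fold change was 5.68, a log2 fold change of 2.50 (SE 0.47), with an adjusted p of 0.0216 by edgeR. The call was kept in 4 of the 8 fits that left out one mouse. It was lost without s4 (adjusted p = 0.066), s14 (0.098), s18 (0.086) or the PBS mouse s11 (0.061), while the log2 fold change stayed between 2.29 and 3.04.

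C2 encodes the protease of the classical and lectin pathway convertase and is the paralogue of Cfb. It had 10.3 (s4), 17.5 (s14) and 9.56 (s18) CPM in LPS mice, against 5.57 (s1), 3.23 (s2), 3.99 (s6), 0.965 (s11) and 3.23 (s16) CPM in PBS mice. The groups did not overlap. The counts were small, with 43 to 50 UMIs in LPS mice and 2 to 16 UMIs in PBS mice, and the value of s11 was under its floor of 3 UMIs. The mean was 12.5 ± 4.38 CPM in LPS mice and 3.40 ± 1.66 CPM in PBS mice. The log2 fold change was 1.80 (SE 0.37), a fold of 3.49, with an adjusted p of 0.0322 by edgeR. It was called in 3 of the 8 fits without one mouse and lost its call without s4 (adjusted p = 0.097), s14 (0.159), s18 (0.076), s2 (0.060) or s11 (0.061), over which the log2 fold change was 1.50 to 1.96. Without the PBS mice s6, s11 and s16 together it was not called either (log2 fold change 1.48, adjusted p = 0.096, edgeR).

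The 2 genes lie next to each other in the class III region of the major histocompatibility complex. On GRCm38, RefSeq places Cfb at chr17:34856374-34862514 and C2 at chr17:34862602-34882100, both protein-coding, with 87 bases between them. C4b lies on the same chromosome at chr17:34728139-34743902. Of the 50-base words in the last 400 bases of the Cfb transcripts in GENCODE M21, 89.2% also occur in Gm20547, a gene model that joins C2 and Cfb and is not a row of the deposited table. The last 400 bases of C2 share no such word with another gene, so a UMI there belongs to C2 by its sequence. Cfb and C2 did not move in a fixed ratio within a mouse. The log2 ratio of Cfb to C2 was 3.99 to 4.74 in LPS mice and 2.22 to 4.69 in PBS mice, with means of 4.28 and 3.24. The difference of 1.04 gave a two-sided p of 0.16 by exact permutation (56 ways to split the mice), or 0.32 adjusted over 4 ratios, where the smallest p such a test can give is 0.0179.

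**Figure D2:**
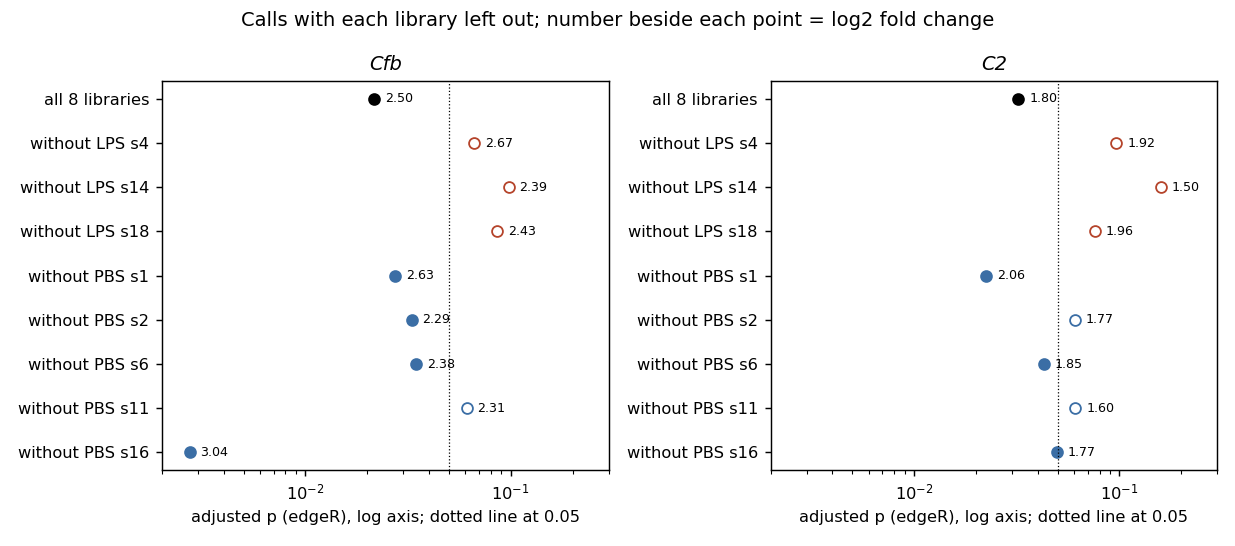
Adjusted p by edgeR (horizontal log axis, dotted line at 0.05) for Cfb and C2 with all 8 mice and with each mouse left out (rows), filled where the gene was called, with the log2 fold change of LPS over PBS printed beside each point. Cfb stays between 2.29 and 3.04 and C2 between 1.50 and 2.06, and leaving out any one LPS mouse ends the call of either gene. Over all genes, 47 to 78 are then called higher, against 185 with all mice.

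C3, the central protein of the cascade, showed a smaller difference. It had 322 (s4), 407 (s14) and 416 (s18) CPM in LPS mice, against 261 (s1), 239 (s2), 315 (s6), 306 (s11) and 362 (s16) CPM in PBS mice. The LPS mouse s4 lay below the PBS mouse s16, so the groups overlapped. The mean was 382 ± 52.1 CPM in LPS mice and 297 ± 48.2 CPM in PBS mice. The log2 fold change of 0.36 (SE 0.16) was not called, with an adjusted p of 0.26 by edgeR. With 634 to 1871 UMIs per library C3 was deeply counted, and its level varied by 1.52-fold among PBS mice, where that of Cfb varied by 5.89-fold.

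C4b encodes the C4 protein of the classical and lectin convertase. It had 20.7 (s4), 20.3 (s14) and 11.3 (s18) CPM in LPS mice, against 20.5 (s1), 14.8 (s2), 12.0 (s6), 11.6 (s11) and 6.47 (s16) CPM in PBS mice. The groups overlapped across most of their range, and the log2 fold change of 0.39 (SE 0.32) was not called, with an adjusted p of 0.57 by edgeR. Its 3′ end is close to that of C4a, which RefSeq lists as a transcribed pseudogene at chr17:34809092-34823460. Of the 50-base words in the last 400 bases of C4b, 46.4% also occur in C4a, so that the split of UMIs between the pair is uncertain. With both rows added up, the log2 fold change was 0.40 and the adjusted p 0.54. The log2 ratio of C3 to C4b was 3.92 to 5.12 in LPS mice and 3.63 to 5.67 in PBS mice, a difference of -0.07 (p = 0.91, exact permutation test).

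The upstream sequence is shown for the members in the RefSeq promoter table that bear on these levels, to set letters known from inflammatory gene control beside the values. Of the 9 members 4 are in that table, C3, Cd55, Cd59a and Cd46. The 250 bases before the start are given from GRCm38.p6 on the gene's own strand, 5′ to 3′, for C3 (chr17:57228137-57228386, minus strand), Cd55 (chr1:130462745-130462994, minus strand) and Cd59a (chr2:104095551-104095800, plus strand), and capitals mark motif matches. The start is that of the promoter table, which for C3 is the 5′ end of the gene's span. The Cd55 window lies wholly inside the span, 2015 bases from its 5′ end, and 48 bases of the Cd59a window lie inside its span, so that other starts of these genes are not covered.
C3: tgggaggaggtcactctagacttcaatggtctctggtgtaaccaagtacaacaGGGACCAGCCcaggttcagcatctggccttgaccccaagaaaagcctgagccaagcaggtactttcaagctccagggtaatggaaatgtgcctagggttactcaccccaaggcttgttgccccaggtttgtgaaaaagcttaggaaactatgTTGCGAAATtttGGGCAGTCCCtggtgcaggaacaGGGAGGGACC
Cd55: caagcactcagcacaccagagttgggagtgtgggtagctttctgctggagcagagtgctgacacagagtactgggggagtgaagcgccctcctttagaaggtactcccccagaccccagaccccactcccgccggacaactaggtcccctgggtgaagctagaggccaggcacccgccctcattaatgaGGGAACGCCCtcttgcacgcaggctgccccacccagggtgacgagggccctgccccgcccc
Cd59a: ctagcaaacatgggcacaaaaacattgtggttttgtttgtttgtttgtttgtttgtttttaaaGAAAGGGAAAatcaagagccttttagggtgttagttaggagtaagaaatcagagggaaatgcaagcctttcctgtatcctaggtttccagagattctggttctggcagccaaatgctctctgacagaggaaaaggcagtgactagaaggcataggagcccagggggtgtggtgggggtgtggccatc

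Motifs were searched on both strands as GGGA and CC with any 4 bases between them for NF-kB, TTCNNNGAA for STAT proteins, GAAA and GAAA with any 2 bases between them for the core of an interferon response element, and TTGCNNCAA or TTGCNNAAT for C/EBP proteins. The C3 window holds 3 NF-kB matches, at 197 to 188, 33 to 24 and 10 to 1 bases before the start, and 1 C/EBP match at 45 to 37 bases. The Cd55 window holds 1 NF-kB match at 61 to 52 bases, and the Cd59a window 1 interferon response core at 187 to 178 bases. None of the 3 windows holds the STAT letters. Among 32851 RefSeq promoter windows of the same length, 17.6% hold the NF-kB letters, 7.02% the STAT letters, 2.98% the interferon core and 3.8% the C/EBP letters. A match describes the sequence and is no measure of binding.

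Cd55, or decay-accelerating factor, is a membrane-anchored protein that speeds the decay of C3 convertases on host cells. It had 49.3 (s4), 46.5 (s14) and 46.5 (s18) CPM in LPS mice, against 37.6 (s1), 41.0 (s2), 35.5 (s6), 17.8 (s11) and 14.6 (s16) CPM in PBS mice. All LPS mice lay above all PBS mice, and the LPS mice were within 1.06-fold of each other while the PBS mice spread over 2.81-fold, with s11 and s16 low. The mean was 47.4 ± 1.58 CPM in LPS mice and 29.3 ± 12.2 CPM in PBS mice. The log2 fold change of 0.68 (SE 0.29) was not called, with an adjusted p of 0.23 by edgeR. The PBS mouse with the highest Cfb, s16, had the lowest Cd55. The log2 ratio of Cfb to Cd55 was 1.93 to 2.62 in LPS mice, against 0.64 (s1), -1.20 (s2), -0.36 (s6), -0.08 (s11) and 2.72 (s16) in PBS mice. The difference of 2.02 gave p = 0.125 in the exact permutation test and 0.32 adjusted over 4 ratios, with s16 above all LPS mice. The log2 ratio of C3 to Cd55 was 2.98 on average in LPS mice and 3.41 in PBS mice (p = 0.43, exact permutation test).

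Cd59a encodes CD59, which blocks assembly of the membrane attack pore. It had 17.5 (s4), 26.6 (s14) and 18.2 (s18) CPM in LPS mice, against 18.1 (s1), 18.4 (s2), 18.7 (s6), 15.0 (s11) and 20.6 (s16) CPM in PBS mice. Only s14 stood above the PBS range, and the log2 fold change of 0.18 (SE 0.19) was not called (adjusted p = 0.68, edgeR). Serping1 encodes C1 inhibitor, which inactivates the proteases of the C1 complex. It had 89.6 (s4), 70.0 (s14) and 43.8 (s18) CPM in LPS mice, against 95.3 (s1), 85.5 (s2), 39.5 (s6), 63.7 (s11) and 40.4 (s16) CPM in PBS mice. The ranges coincided almost entirely, and the log2 fold change was 0.06 (SE 0.31, adjusted p = 0.95, edgeR). The sum of 14 fibroblast markers in the table, of 15 listed, was 437 (s4), 281 (s14) and 133 (s18) CPM in LPS mice and 634 (s1), 579 (s2), 323 (s6), 644 (s11) and 334 (s16) CPM in PBS mice. Within each group the mice ranked similarly in Serping1 and in this sum. In both, s4 was highest and s18 lowest among LPS mice, and s6 and s16 were lowest among PBS mice. The PBS mouse s11 had the highest sum of its group but less Serping1 than s1 and s2. The sum of 9 endothelial markers was likewise lowest in s18 among LPS mice (473 CPM), against 964 (s4) and 969 (s14) CPM. Among PBS mice it was lowest in s16 (490 CPM) and s6 (671 CPM). Of the fibroblast collagens, Col1a1 was at 0 to 2.10 CPM in LPS mice and 0.399 to 2.41 CPM in PBS mice, while Col1a2 had 13.3 to 34.3 CPM in LPS mice and 13.3 to 48.4 CPM in PBS mice, and Col3a1 15.6 to 37.8 CPM in LPS mice and 13.7 to 44.8 CPM in PBS mice. Single fibroblast markers did not all share the order of the sum. Col1a2 was lowest in s18 among LPS mice and in s16 and s6 among PBS mice. Serpinf1 was highest in s18 among LPS mice (37.1 CPM) and in s6 among PBS mice (55.0 CPM). Dcn was highest in s16 among PBS mice (20.6 CPM). Inmt was the largest single part of the sum in PBS mice (138 to 381 CPM). The part of fibroblasts or endothelial cells in the Serping1 level was not tested.

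Clu encodes clusterin, a secreted chaperone that also inhibits the terminal pathway. It had 767 (s4), 1227 (s14) and 869 (s18) CPM in LPS mice, against 622 (s1), 518 (s2), 891 (s6), 678 (s11) and 485 (s16) CPM in PBS mice. The groups overlapped through one PBS mouse, s6. The mean was 954 ± 241 CPM in LPS mice and 639 ± 161 CPM in PBS mice, and the log2 fold change of 0.58 (SE 0.22) was not called, with an adjusted p of 0.18 by edgeR. Added up, the members made up 0.155% to 0.219% of all UMIs in LPS libraries and 0.0901% to 0.129% in PBS libraries. These are shares of raw UMIs, without TMM factors. Clu and C3, neither of them called, together took 74.3% to 77.7% of the members' UMIs in LPS mice and 78.9% to 89.8% in PBS mice. Cfb alone took 12.9% to 16.2% of the members' UMIs in LPS mice and 1.52% to 9.64% in PBS mice.

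**Figure D3:**
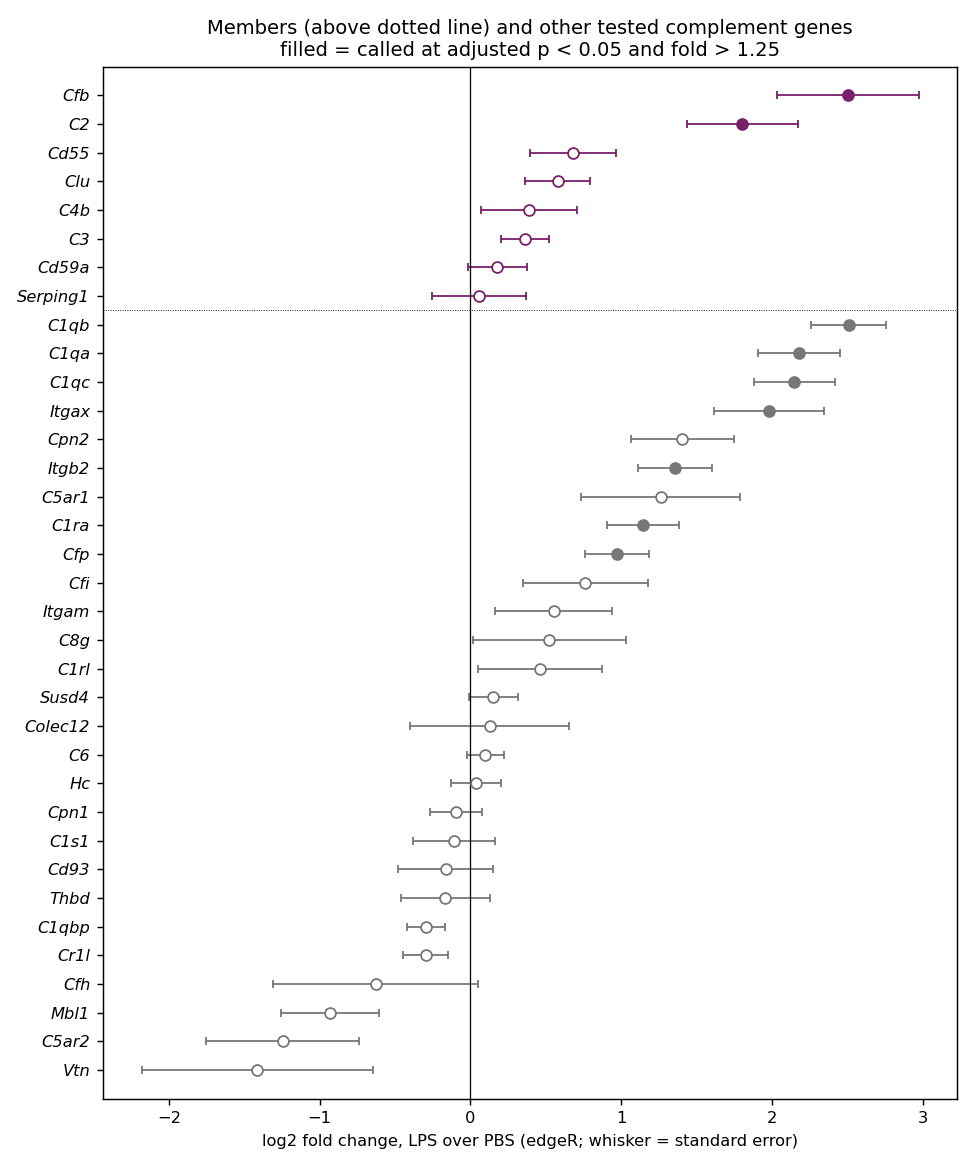
Log2 fold change of LPS over PBS with its SE (horizontal axis, edgeR) for the 8 members above the dotted line and the 27 other complement genes tested below it, with filled symbols for called genes. Cfb at 2.50 and C2 at 1.80 are the called members, and the regulators lie between 0.06 and 0.68.

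The 5 genes whose log2 CPM followed Cfb most closely over the 8 libraries, among 8437 genes with a mean of at least 10 CPM, were Pigr (Pearson r = 0.98), Steap4 (0.97), Dis3l2 (0.96), Pglyrp1 (0.96) and Saa3 (0.96). These values describe 8 libraries in which the group difference is included, and they carry no test. Pigr, the receptor that carries immunoglobulin A across epithelium, had 378 (s4), 590.4 (s14) and 600.0 (s18) CPM in LPS mice, against 125 (s1), 72.6 (s2), 82.5 (s6), 85.4 (s11) and 248 (s16) CPM in PBS mice. As with Cfb, all LPS mice were higher than all PBS mice and s16 was the highest of the PBS mice. Saa3, an acute phase apolipoprotein, had 50.2 to 119 CPM in LPS mice and 3.23 to 15.8 CPM in PBS mice. Steap4, a metalloreductase, had 29.8 to 50.5 CPM in LPS mice and 6.75 to 18.6 CPM in PBS mice. In Pglyrp1, a secreted protein that binds bacterial peptidoglycan, s16 reached 76.0 CPM and overlapped the LPS range of 75.4 to 132 CPM. Dis3l2, an RNA exonuclease, spanned only 14.7 to 15.0 CPM in LPS mice and 11.9 to 13.7 CPM in PBS mice. Neither Dis3l2 (adjusted p = 0.50, edgeR) nor Pglyrp1 (adjusted p = 0.081) was called.

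**Figure D4:**
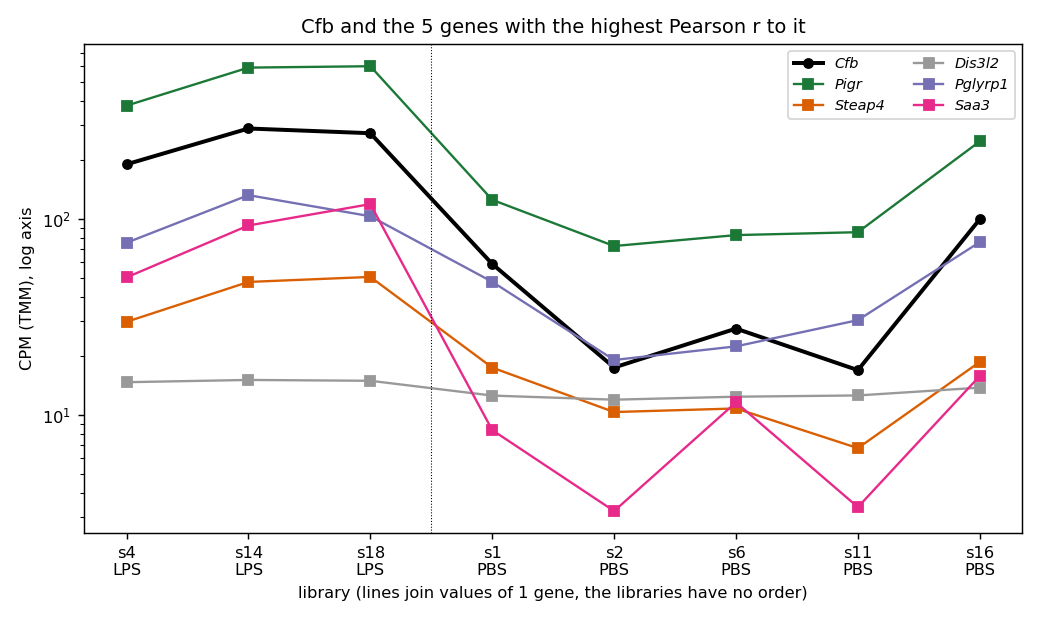
CPM (vertical, log axis) for Cfb and the 5 genes most like it, with LPS libraries left and PBS libraries right on the horizontal axis and lines joining the values of one gene. Cfb, Pigr, Steap4, Saa3 and, by a small margin, Dis3l2 are higher in all LPS libraries. In each gene s16 is highest among PBS libraries, and Dis3l2 varies least.

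Cfb was also set beside markers of the cell types that the gate could hold. The sum of the 17 macrophage markers, all in the table, was 2283 (s4), 1070 (s14) and 1618 (s18) CPM in LPS mice, against 329 (s1), 693 (s2), 487 (s6), 566 (s11) and 564 (s16) CPM in PBS mice. The sum was higher in LPS mice, as Cfb was. Within the groups the order differed. Among LPS mice s4 had the highest macrophage sum and the lowest Cfb, and s14 the lowest sum and the highest Cfb. The PBS mouse s1 had the lowest sum of all mice and the next to highest Cfb of its group. Single markers did not all share the order of the sum in LPS mice. Chil3 (829, 233 and 496 CPM in s4, s14 and s18) and Ctss (550, 280 and 402 CPM) ran with it. Csf1r was lowest in s4 (32.7, 40.6 and 42.5 CPM), and Ms4a7 was highest in s14 (5.77, 5.95 and 4.45 CPM). C1qa (40.4, 55.3 and 38.9 CPM) and C1qb, which are not on this list, were also highest in s14. C2 had the same order as C1qa in LPS mice (10.3, 17.5 and 9.56 CPM in s4, s14 and s18). Among PBS mice the order differed, with C2 highest in s1 (5.57 CPM) and C1qa in s2 (16.1 CPM). The defining macrophage genes were not at 0 in any LPS library, and in PBS libraries Cx3cr1 was at 0 in at least one. The sum of 7 club cell markers was 13095 (s4), 22731 (s14) and 32522 (s18) CPM in LPS mice, against 11042 (s1), 7977 (s2), 8605 (s6), 15034 (s11) and 54796 (s16) CPM in PBS mice, and none of the 7 was called. The PBS mouse s16 had the highest club sum of all mice and the highest Cfb of the PBS mice, but s11 had the next to highest club sum of the PBS mice with their lowest Cfb, and among LPS mice the highest club sum was in s18 and the highest Cfb in s14.

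No gene on the lists of other epithelial cell types was called. Ciliated cell markers summed to 5614 to 6524 CPM in LPS mice and 1415 to 4436 CPM in PBS mice, and alveolar type II markers to 109603 to 117566 CPM in LPS mice and 128394 to 185836 CPM in PBS mice, with no overlap in either sum. The sums of alveolar type I markers overlapped, at 3107 to 3666 CPM in LPS mice and 3099 to 3983 CPM in PBS mice. Msln, a surface protein of mesothelium that epithelial cells can also express, had 103 (s4), 171 (s14) and 137 (s18) CPM in LPS mice, against 105 (s1), 16.8 (s2), 11.6 (s6), 13.99 (s11) and 87.3 (s16) CPM in PBS mice. As in Cfb, s1 and s16 were the high PBS mice. The mesothelial genes Upk3b (0 to 1.20 CPM in LPS mice, 0 to 1.94 CPM in PBS mice) and Lrrn4 (0.445 to 1.44 CPM in LPS mice, 0 to 2.39 CPM in PBS mice) were at or near 0. Of the 6 mesothelial genes in the table, of 7 listed, Gpm6a was also low (0.700 to 3.60 CPM in LPS mice, 0.399 to 3.23 CPM in PBS mice), while Upk1b had 2.80 to 7.93 CPM in LPS mice and 2.39 to 11.3 CPM in PBS mice, and Rspo1 3.85 to 6.97 CPM in LPS mice and 1.93 to 5.48 CPM in PBS mice. Among PBS mice Upk1b, Rspo1 and Gpm6a were each highest in s2 (11.3, 5.48 and 3.23 CPM), a mouse low in Cfb and Msln. No gene of the mesothelial list was called. The part of macrophages, club cells or ciliated cells in the levels of Cfb and C2 was not tested.

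**Figure D5:**
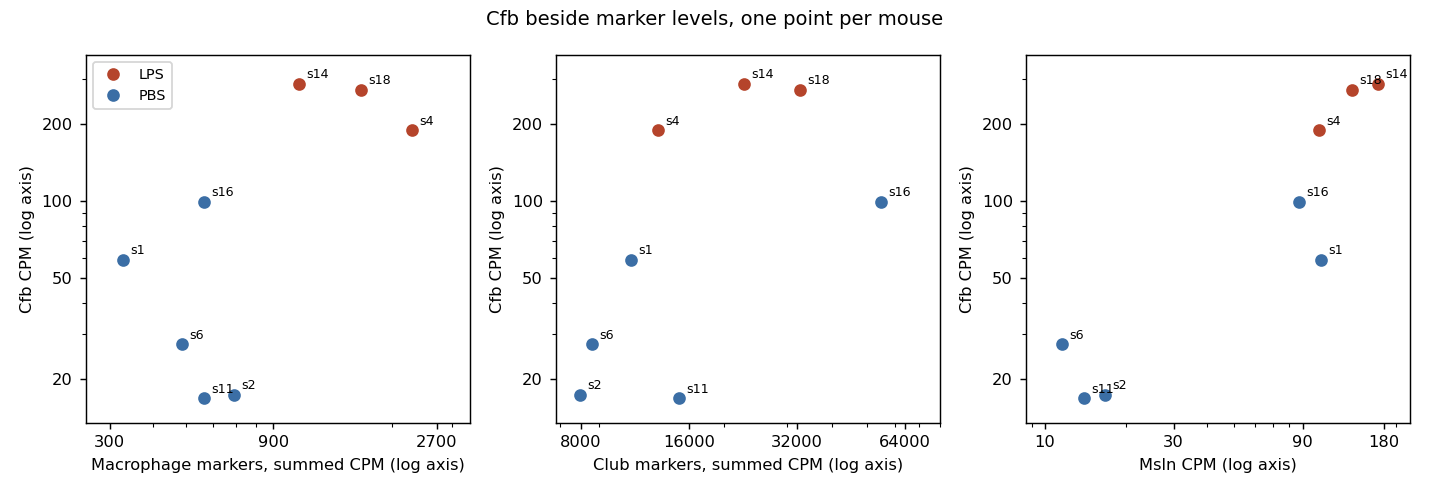
Cfb CPM (vertical, log axis) against the summed CPM of 17 macrophage markers, of 7 club cell markers, and the CPM of Msln (horizontal, log axes), one point per mouse. The LPS mouse with the highest macrophage sum, s4, has the least Cfb of its group, though single macrophage markers differ in order. The PBS mice with high Cfb, s1 and s16, are those with high Msln. Upk1b, Rspo1 and Gpm6a, not plotted, are highest in s2 among PBS mice.

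The list of 51 other complement genes was also chosen with earlier results of these data known. Of these genes 30 were in the table and 27 were tested. Of the 27 tested, 7 were called higher and 0 lower, against 1.46% and 0.569% of all tested genes. Their median log2 fold change was 0.15, against -0.02 over all tested genes. Of these 7, the chains of C1q, which starts the classical pathway, had log2 fold changes of 2.51 (C1qb), 2.18 (C1qa) and 2.15 (C1qc), and Itgax and Itgb2, which encode subunits of complement receptors on leukocytes, had 1.98 and 1.36. All 5 are genes that macrophages express, and the macrophage marker sums stand above. This does not mark off the other called genes by cell source. The others were C1ra, a protease of the C1 complex, and Cfp, or properdin, which stabilizes the alternative pathway convertase. C1ra had 23.8 (s4), 23.8 (s14) and 23.4 (s18) CPM in LPS mice, against 11.1 (s1), 10.3 (s2), 16.3 (s6), 6.75 (s11) and 8.49 (s16) CPM in PBS mice. It had a log2 fold change of 1.14 (SE 0.24) and an adjusted p of 0.0348 by edgeR. Cfp had 30.3 (s4), 27.6 (s14) and 25.8 (s18) CPM in LPS mice, against 10.8 (s1), 20.3 (s2), 14.8 (s6), 13.0 (s11) and 11.7 (s16) CPM in PBS mice. Its log2 fold change was 0.97 (SE 0.21), with an adjusted p of 0.0402 by edgeR. Neither C1ra nor Cfp overlapped between the groups. The cell source of the 7 called genes, C1ra and Cfp included, was not tested. The C1q chains were called in 8 of the 8 fits that left out one mouse. Itgax and Itgb2 were called in 5 and lost the call without s4, s18 or s11. C1ra was called in 2, being lost without s4, s14, s18, s2, s11 or s16 (adjusted p up to 0.128, edgeR), and Cfp in 2, being lost without s4, s14, s18, s1, s11 or s16 (up to 0.157).

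The 4 other complement genes next by p were not called. Cpn2, a subunit of the carboxypeptidase that inactivates anaphylatoxins, gave a log2 fold change of 1.40 (edgeR, adjusted p = 0.062), with 4.08 to 6.30 CPM in LPS mice and 1.29 to 2.83 CPM in PBS mice. Its counts were small, at 17 to 24 UMIs in LPS mice and 4 to 7 UMIs in PBS mice. Mbl1, a mannose-binding lectin, had -0.93 (adjusted p = 0.16, edgeR). The anaphylatoxin receptors C5ar2 and C5ar1 had -1.25 and 1.26 (adjusted p = 0.22 and 0.23, edgeR), both from few UMIs. Hc, C6 and Cr1l were picked out after their values were seen, as the terminal components and the C3b-binding regulator with sizeable counts. Hc, which encodes C5, averaged 1792 ± 197 CPM in LPS mice and 1747 ± 266 CPM in PBS mice, and C6, a part of the membrane attack pore, 107 ± 8.95 CPM in LPS mice and 100.3 ± 7.15 CPM in PBS mice. Cr1l (Crry), the rodent membrane regulator of C3 convertases, averaged 45.0 ± 5.05 CPM in LPS mice and 55.6 ± 7.77 CPM in PBS mice, and every LPS mouse lay below every PBS mouse, as in 5.86% of tested genes. Its log2 fold change of -0.30 was not called (adjusted p = 0.32, edgeR).

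Genes of the cytokine and Toll-like receptor signalling that is known to act on complement promoters were read from a list of 20 genes, all of them tested. With edgeR 0 of 20 were called, against 2.03% of all tested genes, and the median log2 fold change was 0.01. At an unadjusted p under 0.05, 3 of 20 were higher and 1 of 20 lower, against 10.4% and 7.64% of all tested genes. The higher genes were Irf7 (log2 fold change 0.72, adjusted p = 0.13, edgeR), Ifngr2 (0.53, adjusted p = 0.11) and Cebpb (0.37, adjusted p = 0.26). The lower gene was Stat3 (-0.32, adjusted p = 0.26, edgeR).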

How the data were processed

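Lung epithelial cells of 3 LPS and 5 PBS mice were measured by bulk MARS-seq. Reads were processed by the authors with UTAP, a transcriptome pipeline, which kept those with 1 position at RefSeq 3′ ends of mm10, and the raw UMI counts per gene that they deposited entered every test. The sources used here do not give the aligner. The tests drew on no other values per mouse, of which there were 16 columns, nor on 7 columns of the authors' own comparison (means, fold changes and p-values). Column numbers are in no sample label, so libraries were placed in groups but not tied to replicate numbers. The labels call the samples biological replicates.

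Genes with at least 30 UMIs over the 8 libraries entered edgeR 4.0.16 (TMM factors, estimateDisp, glmQLFit, glmQLFTest) in R 4.3.3, with Benjamini-Hochberg adjustment. Calls needed an adjusted p below 0.05 and a log2 fold change above 0.32 in size. The pipeline was tested on simulated data. SEs are the log2 fold change over the square root of the F statistic. Ratios used log2 CPM with a prior count of 2 and a two-sided exact permutation test, adjusted over 4 ratios. Named genes are the 9 members, the other complement genes called or, of those not called, the 4 of smallest p, and the 5 genes most like the member of smallest p. Members and lists were chosen with earlier results of these data known. Alternatives were DESeq2 1.42.0, limma-voom (limma 3.58.1), DESeq2 size factors, library totals, no filter, a filter of 100 UMIs, no fold threshold, a prior count of 0.5, and each library left out in turn. The joint removal of s6, s11 and s16 or of s1 and s2, and the sum of C4a and C4b, were chosen after seeing the data. UMI counts limit precision, and the floor of 3 UMIs covers counting error only.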

Additional observations from a re-analysis of the deposited data

How the results depend on the processing

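Cfb and C2 were called with edgeR, DESeq2 (adjusted p = 0.0066 and 0.0014) and limma-voom (0.0147 and 0.0436), with each scaling, filter and fold setting tried. Without one library, 0 to 2 members were called higher, with a log2 fold change of 2.29 to 3.04 for Cfb and 1.50 to 2.06 for C2. Over all genes, 47 to 259 were then called higher and 12 to 95 lower. With DESeq2, 367 genes were called higher and 190 lower, and with library totals 42 were called lower. Without the PBS libraries s6, s11 and s16, 1 member was called higher (Cfb, adjusted p = 0.0126), C2 had 1.48 (adjusted p = 0.096), and 125 genes were called higher and 47 lower. Without s1 and s2, 527 were called higher and 381 lower, and 2 members were called. The cause of these shifts was not tested.

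Uncalled values near 0 changed sign. C4b had a log2 fold change of -0.023 without s6, s11 and s16. Cd59a ranged between -0.024 (without s14) and 0.29 over the fits without one library, and Serping1 between -0.20 and 0.29. Serping1 had -0.20 without s4, -0.08 without s6, -0.07 without s16 and -0.41 without s6, s11 and s16. The log2 ratio of C3 to C4b differed by 0.19 without s4, 0.01 without s14 and 0.22 without s16. Scaling moved the median log2 fold change of all genes to 0.06 with library totals, against -0.02 with TMM, and 80.2% and 72.0% of calls were then higher. No paired analysis was possible because the library columns carry no replicate number of the labels. At 2 to 16 UMIs per PBS library, depth limits C2 most.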
